A study of Mus musculus with 12 samples.

Results

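Embryos lacking p53 (genotype p53-/-, arrays titled p53) were compared with wild-type embryos (wt), both with intact Acd, at mid-gestation (E10.5). The rule took the 3 arrays of each genotype, 6 of the 12 arrays in the series, and every probe set that is no control and has a single gene symbol, which gave 34945 of 45101 probe sets. Each array holds RNA of a whole embryo, labelled from 250 ng of total RNA, and the replicates are called biological in the labels. The other 6 arrays come from embryos homozygous for the acd allele of Acd (Acdacd/acd, titled acd) and from embryos homozygous for acd that also lack p53 (titled double), 3 of each. No treatment was given to any group. Strain, litter and kind of p53 allele are not given. Each p-value sets the difference between genotypes against the spread of these embryos within a genotype.

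p53 is a transcription factor that is kept at a low level by the ubiquitin ligase Mdm2 and its partner Mdm4. After DNA damage or other stress it accumulates, binds pairs of half-sites near its target genes and raises the transcription of cell cycle inhibitors, pro-apoptotic genes and repair genes. Most mice without p53 complete development, although some embryos fail to close the cranial neural tube, so the question of this contrast is which transcripts differ when p53 is absent and no stress was applied. Acd encodes TPP1, a subunit of the shelterin complex that protects chromosome ends.

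The values are log2 expression levels, so a difference of 1 is a doubling or halving, and each error of a difference is the standard error of limma's fit to these 6 arrays. Of the 45101 probe sets 23620 were measured well enough to test, for 13248 of 18193 genes. Array medians ran from 5.32 to 5.40 over all 12 arrays. Genes whose mean lay around or below that level in one of the groups can have their differences compressed by background. This is said for most single genes where it applies, and it held for 2488 of the 13248 genes tested. Among them were 9 of 18 tested macrophage genes, 8 of 14 tail bud genes and 4 of 9 interferon response genes. Acd, checked first because it names the other mutant, stood at 8.999, 8.995 and 8.988 in wt and at 8.84, 8.85 and 9.05 in p53, against 8.27, 8.31 and 8.22 in acd. The transcript of the p53 gene itself was not analysed here, so the genotype p53-/- was not checked, and the array titles say only p53. The target genes below are results of this contrast and are no check of the genotype. From Y-linked transcripts and Xist, 1 of 3 wt embryos (replicate 1) and all 3 p53 embryos were male. These 3 arrays stand apart in ways that touch the results: wt replicate 3 on chromosome 11, p53 replicate 2 in endoderm transcripts and in many single probe sets, and acd replicate 1, which lies with the p53 embryos for several p53 targets.

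No probe set passed limma's test at an adjusted p of 0.05 (0 of 23620, 0%). At an unadjusted p under 0.05 there were 592 probe sets (2.51%), 314 higher (1.33%) and 278 lower (1.18%) in p53, fewer than the 1181 that a uniform distribution of p would give. The 3 p53 values lay entirely above the 3 wt values in 842 probe sets (3.56%) and entirely below in 715 (3.03%). With 1 probe set per gene, 6372 genes were higher and 6876 lower, with a median difference of -0.003. The differences with the smallest p included a small number of p53 target genes that were lower, and Gm6958. They also included a group of chromosome 11 probe sets that were lower or higher by large amounts. Others belonged to none of these kinds, such as Lhx3 on chromosome 2 (unadjusted p of 0.0017 in limma), Mdga2, Rufy2 and Dmrta1, all higher in p53.

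A pair of sequences bears on the target genes, the promoters of Ccng1 and Phlda3, which are the targets with the smallest p. They are printed to show the letters next to the start of transcription that p53 could contact. Both are RefSeq promoters on GRCm38.p6, the 250 bases before the start of the gene, 5′ to 3′ on the gene's strand, and capitals mark matches to the p53 half-site consensus. The consensus is its own reverse complement, so one search covers both strands. Ccng1 lies on the minus strand at chr11:40755287-40755536 and Phlda3 on the plus strand at chr1:135765835-135766084.
Ccng1: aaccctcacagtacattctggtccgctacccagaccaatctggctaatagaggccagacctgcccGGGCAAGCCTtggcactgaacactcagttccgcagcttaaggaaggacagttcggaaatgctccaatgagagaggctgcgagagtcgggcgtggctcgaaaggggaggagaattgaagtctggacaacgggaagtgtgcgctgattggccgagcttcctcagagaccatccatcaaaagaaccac
Phlda3: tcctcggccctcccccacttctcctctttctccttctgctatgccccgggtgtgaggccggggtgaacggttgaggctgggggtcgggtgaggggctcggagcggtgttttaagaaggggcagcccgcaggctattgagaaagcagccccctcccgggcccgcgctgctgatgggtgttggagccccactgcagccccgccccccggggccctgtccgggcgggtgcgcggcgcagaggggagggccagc
The Ccng1 promoter held 1 half-site, which begins 185 bases before the start, and the Phlda3 promoter held none in this window. Of the 8 targets with the smallest p (Ccng1, Phlda3, Cpt1c, Pidd1, Zmat3, Trp53inp1, Aen and Sco2), 6 have an entry in the table, and the other one with a half-site was Aen, in one of its promoters. Among all 32851 RefSeq promoters, 7.13% held a half-site in the same 250 bases, and among the 44 promoter entries of the tested p53 targets 25% did (11 entries, for 11 of the 34 genes with an entry). A match is a description of letters and says nothing of binding in these embryos.

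The p53 target genes were described with 3 lists of textbook targets, 49 genes in all, of which 42 were tested. None passed, 12 were higher and 30 lower in p53, and the median difference was -0.03 beside -0.003 over all genes tested. At an unadjusted p under 0.05 there were 5 lower members and 0 higher, where 1.16% of all genes were lower and 0.996% higher at that level. The groups did not overlap in 5 members that were lower and 2 that were higher, where 3.34% and 3.43% of all genes did so.

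Of the cell cycle and checkpoint targets 14 of 16 were lower, with a median of -0.06. Ccng1, cyclin G1, which brings a phosphatase to Mdm2, stood at 9.22, 9.26 and 8.75 in wt and at 8.32, 8.54 and 8.39 in p53. The groups do not overlap, and wt replicate 3 is the nearest to the p53 embryos. The difference was -0.66 ± 0.14 (SE, n = 3 embryos each), 0.634 of the wild-type level, with an unadjusted p of 0.0023 and an adjusted p of 1.0 in limma. All 3 probe sets of Ccng1 were lower, by between -0.78 and -0.47. Without wt replicate 3 the Ccng1 difference was -0.82 with an adjusted p of 0.18, the lowest over all alternatives. Ccng1 itself lies on chromosome 11, the chromosome of the p53 gene.

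Zmat3, an RNA-binding zinc finger protein, stood at 8.80, 8.94 and 8.65 in wt and at 8.54, 8.67 and 8.54 in p53. One p53 value lies above the lowest wt value, and the difference was -0.21 ± 0.09. Trp53inp1, a stress-induced partner of p53, differed by -0.19 ± 0.08 without overlap. Cdkn1a, the cyclin-dependent kinase inhibitor p21 and the best known arrest target, stood at 8.09, 8.09 and 8.03 in wt and at 7.92, 8.04 and 8.02 in p53. The highest p53 value and the lowest wt value meet, and the difference was -0.08 ± 0.06. Gtse1, a G2 protein that acts on p53, differed by -0.08 ± 0.06 and Sesn2, a stress-induced inhibitor of growth signalling, by -0.10 ± 0.09. Among the 2 that were higher, Btg2, an antiproliferative gene, differed by 0.07 ± 0.12 (-0.051 without p53 replicate 2) and Plk3, a polo-like kinase, by 0.04 ± 0.05. The 3 Plk3 values of p53 all lie above those of wt, by a small margin.

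Of the apoptosis targets 9 of 14 were lower, with a median of -0.03 that became 0.01 without p53 replicate 1. Phlda3, which competes with the kinase Akt for membrane lipids, stood at 7.59, 7.71 and 7.35 in wt and at 7.08, 6.93 and 7.16 in p53. The groups do not overlap, and wt replicate 3 again lies nearest to p53. The difference was -0.49 ± 0.11, 0.711 of the wild-type level, with an unadjusted p of 0.0024 and an adjusted p of 1.0 in limma. Without wt replicate 3 the adjusted p of Phlda3 was 0.66. Pidd1, the death-domain scaffold that activates caspase-2, stood at 7.34, 7.48 and 7.41 in wt and at 7.17, 7.14 and 7.23 in p53, a difference of -0.24 ± 0.06 without overlap. Aen, a nuclease of apoptotic cells, was lower by -0.14 ± 0.06, and all 4 of its probe sets were lower. The BH3-only genes of the list, which act on mitochondria, did not share a sign: Pmaip1 (Noxa) differed by -0.13 ± 0.10, Bid by -0.02 ± 0.10 and Bbc3 (Puma) by 0.10 ± 0.08, each with overlapping groups.

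Of the repair and metabolism targets 7 of 12 were lower, with a median of -0.01 that ran from -0.04 (without p53 replicate 2) to 0.02 (without p53 replicate 3) when single arrays were left out. Cpt1c, the carnitine palmitoyltransferase isoform of neurons, stood at 6.77, 6.83 and 6.65 in wt and at 6.44, 6.52 and 6.403 in p53. These groups do not overlap, and the difference was -0.29 ± 0.07. Sco2, an assembly factor of cytochrome c oxidase, differed by 0.13 ± 0.07, and Tigar, a phosphatase that slows glycolysis, by 0.09 ± 0.06. Ddb2, a damage sensor of nucleotide excision repair, differed by -0.13 ± 0.07 in one probe set and by 0.16 in the other. With sex as a term the median of these 12 genes was -0.06, and that of the 42 targets together was -0.07. Every p53 embryo was male, and in wt only replicate 1 was. That fit therefore sets the p53 mean against wt replicate 1 alone and is no separate estimate of the sex effect.

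**Figure D1:**
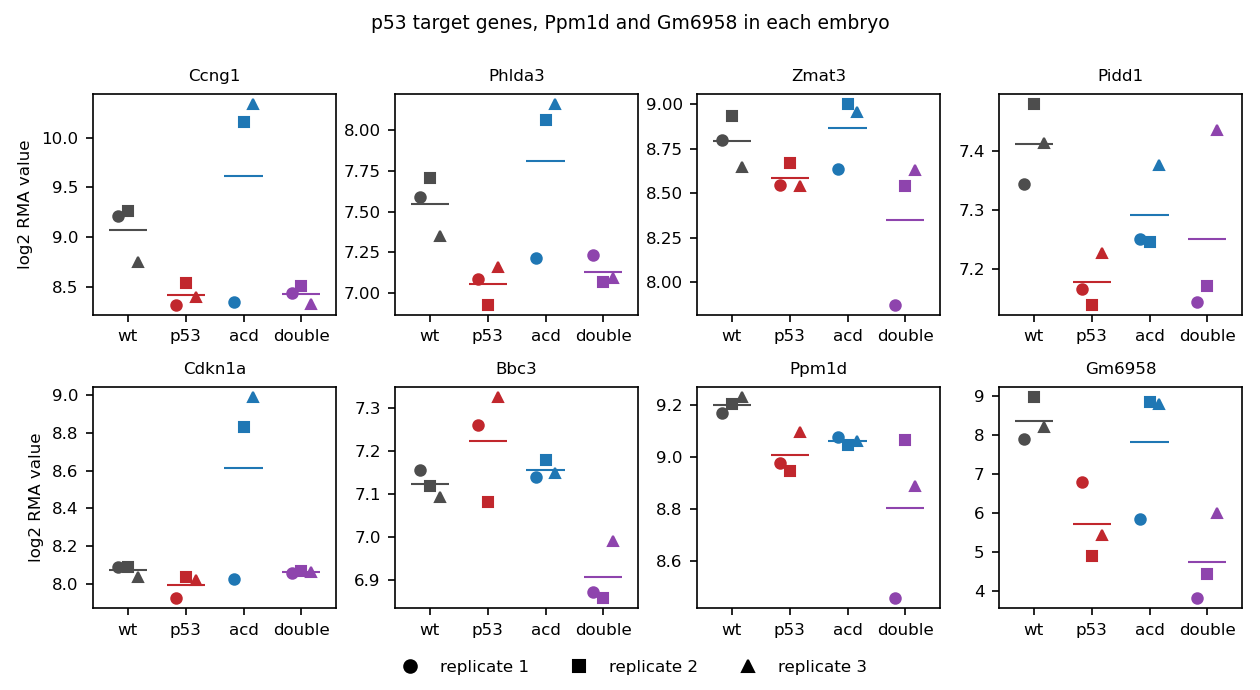
Log2 RMA value (vertical axis, scaled per gene) of 6 p53 target genes, of Ppm1d and of Gm6958 in each of the 12 embryos, by genotype. Symbols mark replicates 1 to 3 and horizontal lines the genotype means. For Ccng1 the 3 p53 embryos lie between 8.32 and 8.54 and the wt embryos between 8.75 and 9.26, while Cdkn1a and Bbc3 overlap.

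The same genes can be read in the double and acd embryos, which share no array with this comparison. Over the 42 tested targets together the median double minus acd difference was -0.02, and -0.05 without acd replicate 1. For Pidd1 and Cpt1c it was -0.04 and -0.09, and for Ccng2 it was 0.61. Ccng1, Phlda3 and Cdkn1a, given next, were lower by more than that median. Ccng1 stood at 8.44, 8.51 and 8.33 in double, levels that lie among those of the p53 embryos, and at 8.34, 10.16 and 10.34 in acd. The double minus acd difference of Ccng1 was -1.19 ± 0.39 (adjusted p of 0.42 in limma over 12 arrays), and -1.82 without acd replicate 1. Phlda3 gave 7.23, 7.07 and 7.09 in double and 7.21, 8.06 and 8.16 in acd, a difference of -0.68, or -0.98 without acd replicate 1. Cdkn1a differed by -0.55 between double and acd (8.06, 8.07 and 8.06 in double against 8.02, 8.83 and 8.99 in acd), where its p53 minus wt difference was -0.08. In Ccng1, Phlda3 and Cdkn1a acd replicate 1 lies at or near the level of the p53 and double embryos. Its Acd value of 8.27 lies with the other acd embryos. Since double embryos are homozygous for acd too, that value does not bear on the p53 genotype. The difference between the 2 contrasts was tested as an interaction, and limma passed 0 probe sets in it, with 818 at an unadjusted p under 0.05.

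Of the regulators and relatives of p53, 17 of 18 listed genes were tested, with 7 higher, 10 lower and a median of -0.01. Ppm1d, the phosphatase Wip1 that dephosphorylates p53 and is also one of its targets, stood at 9.17, 9.20 and 9.23 in wt and at 8.98, 8.95 and 9.10 in p53. These groups do not overlap and the difference was -0.19 ± 0.06 with an unadjusted p of 0.017; both of its probe sets were lower, and Ppm1d lies on chromosome 11. Trp63, a paralog of p53, differed by 0.15 ± 0.07 and Chek1, a checkpoint kinase, by 0.11 ± 0.05, in both cases with all p53 values above those of wt. Mdm4 differed by -0.10 ± 0.06 in its probe set with the highest mean, and its 2 other probe sets were higher, by up to 0.12. Mdm2, which the naming rule did not pick and which is given for its role, differed by -0.09 ± 0.07.

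Gm6958, a gene on chromosome 16, had the largest difference of any gene outside the sex chromosomes. It stood at 7.90, 8.98 and 8.22 in wt and at 6.81, 4.90 and 5.45 in p53, so the groups are separated by more than 1 log2 unit. The difference was -2.65 ± 0.49, 0.16 of the wild-type level, with an unadjusted p of 0.0010 and an adjusted p of 1.0 in limma. Its other probe set differed by -2.05. The values of p53 replicates 2 and 3 lie around or below the array medians, where background compresses a difference. Gm6958 was also low in the double embryos (3.83, 4.43 and 6.01) and in acd replicate 1 (5.84), but not in acd replicates 2 and 3 (8.85 and 8.80). The double minus acd difference was -3.07, and -4.07 without acd replicate 1.

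Chromosome 11, where the p53 gene lies, held more of the small p-values than any other chromosome. Of its 1937 tested probe sets 99 (5.11%) had an unadjusted p under 0.05 (2.63% lower and 2.48% higher), against 1.52% to 3.12% on the 19 other chromosomes with at least 100 tested probe sets. Of the 50 probe sets with the smallest p, 20 lay on chromosome 11, 14 lower and 6 higher in p53, and no other chromosome held more than 5. Chromosome 11 held 8.23% of the tested probe sets that have a chromosome. Probe sets that differed by more than 1 log2 unit numbered 15: 8 on chromosome 11, the 2 of Gm6958, 5 on the X and Y chromosomes, and 0 elsewhere. In gene order, 19 of the 700 genes after the p53 gene had a probe set with an unadjusted p under 0.01 (2.71%), against 4 of the 389 before it (1.03%). The 4 include Ccng1, which is the 166th tested gene in that order. Over all of chromosome 11 the share at this measure was 2.11%, and it was not computed for other chromosomes.

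**Figure D2:**
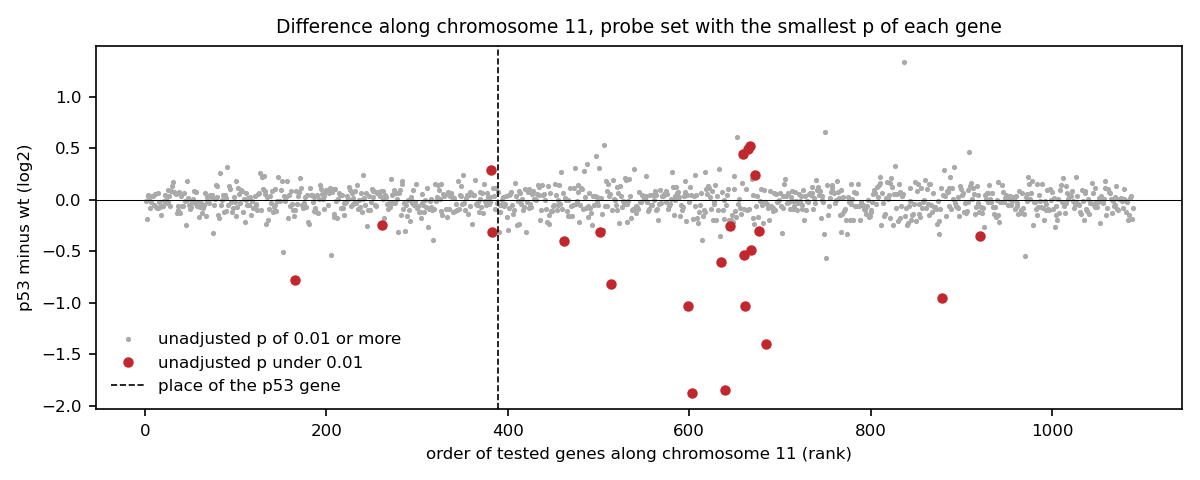
Difference p53 minus wt (log2, vertical axis) of the probe set with the smallest p of each tested gene of chromosome 11, by gene order along it (horizontal axis, rank). Red points have an unadjusted p under 0.01; of these 23 genes 18 were lower and 5 higher, and 19 lie to the right of the dashed line that marks the place of the p53 gene.

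The 2 probe sets with the smallest p in the whole comparison were those of Slfn9 and Gdpd1. Slfn9, of the Schlafen family, stood at 7.53, 7.42 and 7.17 in wt and at 6.37, 6.32 and 6.34 in p53. The groups are far apart and the p53 values lie close together. The difference was -1.03 ± 0.10, 0.49 of the wild-type level, with an adjusted p of 0.19 in limma. One probe set of Gdpd1, a lipid phosphodiesterase, stood at 8.84, 8.64 and 8.11 in wt and at 6.82, 6.66 and 6.59 in p53, a difference of -1.84 ± 0.18 with an adjusted p of 0.19. The other probe set of Gdpd1, which has the higher mean, differed by 0.04 ± 0.06, so the transcript is not lower by every measure of it.

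Glod4, a glyoxalase-domain protein, stood at 11.002, 11.004 and 10.66 in wt and at 10.02, 10.08 and 10.11 in p53, a difference of -0.82 ± 0.10 (adjusted p of 0.63 in limma). Rsad1, a radical SAM protein, stood at 7.38, 7.39 and 6.64 in wt and at 5.69, 5.61 and 5.90 in p53, a difference of -1.40 ± 0.20. Rsad1 lies around the array median in p53. The other chromosome 11 genes among the 8 lower genes with the smallest p had an adjusted p of 1.0: Itgb3, integrin beta 3, at -0.95 ± 0.18; Ccdc182 at -0.53 ± 0.10; Slc16a6, of the monocarboxylate transporter family, at -0.35 ± 0.06; and Chd3, a chromatin remodeller near the p53 gene, at -0.31 ± 0.06. Itgb3 and Ccdc182 also lie around the array median. Of 16 tested genes that neighbour the p53 gene, 11 were lower and 5 higher with a median of -0.04, and Chd3 alone had an unadjusted p under 0.05.

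Several of these differences belonged to 1 probe set of a gene whose other probe sets differed less or the other way. They were singled out after their values were seen. For Taf15, an RNA-binding protein of the FET family, one probe set stood at 7.27, 7.29 and 6.20 in wt and at 5.56, 5.00 and 4.59 in p53 (-1.87 ± 0.34), while the other differed by 0.28 ± 0.27. The p53 values of the first Taf15 probe set lie around or below the array medians. For Msi2, an RNA-binding Musashi protein, one probe set differed by -1.03 ± 0.19, and the probe set with the highest mean by -0.08 ± 0.06. For Cuedc1 the probe sets were all higher in p53: one stood at 5.61, 5.35 and 7.31 in wt and at 8.26, 8.17 and 8.29 in p53 (2.15 ± 0.46), and the others differed by 0.45 ± 0.08 and 0.16 ± 0.09. For Lsm12 one probe set stood at 6.30, 6.58 and 8.70 in wt and at 8.60, 8.27 and 8.72 in p53, so that wt replicate 3 lies among the p53 embryos, and the other differed by 0.36 ± 0.23.

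For 20 chromosome 11 probe sets, those with the smallest p among the ones whose groups do not overlap and that differ by at least 0.4 log2 units, each array was placed on a scale from the p53 mean (0) to the mean of wt replicates 1 and 2 (1). On it wt replicate 3 had a median of 0.48, with a range of 0.26 to 0.79, so it lay between the groups in every one of them. The acd embryos carry no p53 mutation in their labels, and their medians were 0.05, 0.08 and 0.52 for replicates 1 to 3, with ranges of -0.27 to 0.48, -0.95 to 2.89 and -0.02 to 2.89. The double embryos had medians of 0.23, 0.15 and -0.03. The probe sets were chosen by this contrast, so the positions of the wt and p53 arrays are a description. By the medians acd replicates 1 and 2 lay near the p53 embryos and replicate 3 lay between, but at the 3 probe sets of Ccng1 acd replicates 2 and 3 lay beyond the wt embryos, at 2.08 to 2.89. The p53 genotype and any other difference between these embryos on chromosome 11 cannot be told apart here.

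Leaving out wt replicate 3 gave 7 probe sets that passed limma's test, 3 higher (0.0127% of 23620) and 4 lower (0.0169%), each on chromosome 11. They were those of Cuedc1 (2.76, adjusted p of 0.0027), Gdpd1 (-2.05, 0.011), Slfn9 (-1.13, 0.020), Rsad1 (-1.65, 0.020), Glod4 (-0.93, 0.036), Lsm12 (2.09, 0.040) and Med1 (0.94, 0.045), a subunit of the Mediator complex. Leaving out wt replicate 1, the male wt embryo, gave 4 that passed, all sex-linked: Kdm5d, Eif2s3y and Uty higher (0.0127%) and Xist lower (0.00423%) in p53. Leaving out each of the other 4 arrays gave 0.

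**Figure D3:**
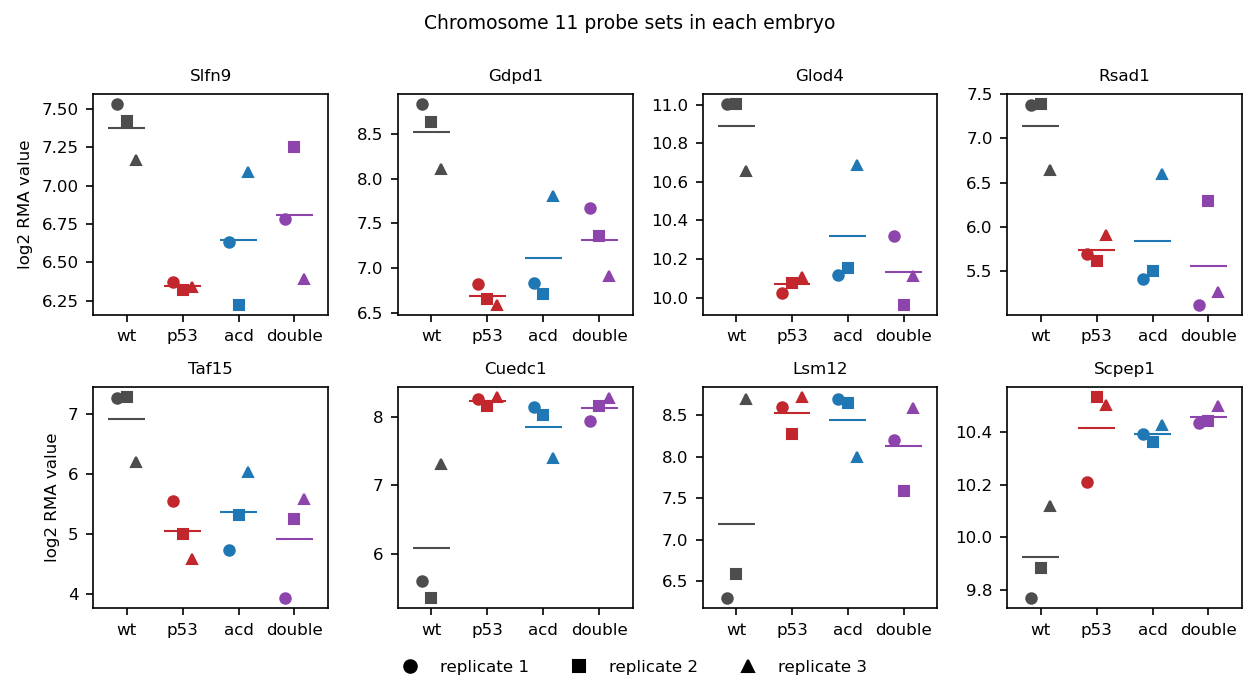
Log2 RMA value (vertical axis, scaled per panel) of 1 probe set each of 8 chromosome 11 genes in the 12 embryos, by genotype, with replicates as symbols and genotype means as lines. In wt, replicate 3 (triangle) lies between the other wt embryos and the p53 embryos in 7 panels and among the p53 embryos for Lsm12, and acd replicates 1 and 2 lie nearer to p53 than to wt.

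The 8 genes with the smallest p among those that were higher in p53 were Cuedc1 (above), Lhx3, a LIM homeobox gene of motor neurons and pituitary (0.28 ± 0.06), Mdga2, a neuronal adhesion protein (0.35 ± 0.08), Trim34a (0.30 ± 0.07), Rufy2 (0.53 ± 0.13), Dmrta1, a DM-domain transcription factor (0.44 ± 0.10), and on chromosome 11 Rnf227 (0.29 ± 0.07) and Scpep1, a serine carboxypeptidase (0.49 ± 0.12, with its other probe set at -0.00074). Each had an adjusted p of 1.0 in limma and none overlapped between the groups. The wt means of Lhx3, Mdga2, Trim34a, Rufy2 and Dmrta1 lie around or below the array median. In Lhx3 the values were 5.77, 5.87 and 5.87 in wt and 6.08, 6.16 and 6.11 in p53, but the acd embryos (5.82, 5.56 and 5.68) and the double embryos (5.89, 5.82 and 5.79) lay close to wt. The acd means of Rufy2 (5.30), Dmrta1 (5.38), Trim34a (4.88) and Scpep1 (10.39) instead lay near the p53 means (5.31, 5.32, 4.84 and 10.41). The wt means of these genes were 4.78, 4.87, 4.53 and 9.92. For Cuedc1 and Mdga2 the acd mean lay between those of wt and p53, and for Rnf227 it lay below wt.

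Of 28 lists of pathway and cell type genes, 26 had a median difference within 0.07 log2 units of 0. The 2 outside it were primitive erythroid cells and visceral endoderm with liver, and in both the embryos of 1 genotype differed among themselves as much as the genotypes did. Since whole embryos were measured, fewer cells of a type and less RNA per cell cannot be told apart. Over each list the mean of every p53 array lay below that of all wt arrays in 4 of the 28, namely the cell cycle targets, the apoptosis targets, the regulators of p53 and the neighbours of the p53 gene, and above it in 0. How often other lists would separate in this way was not tested. For the regulators p53 replicate 1 lay at -0.005 and wt replicate 3 at -0.002, relative to the wt mean. Over all genes tested p53 replicate 1 lay at -0.03, and the other p53 embryos and the wt embryos at -0.008 to 0.008.

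All 17 tested erythroid genes were lower in p53, by between -0.45 and -0.03 with a median of -0.20, and none passed. The median was -0.05 without wt replicate 3 and -0.34 without p53 replicate 2. At an unadjusted p under 0.05 there was 1, Klf1, the master transcription factor of erythroid cells. It stood at 9.33, 9.15 and 9.81 in wt and at 9.16, 8.99 and 8.79 in p53, with a difference of -0.45 ± 0.18. The highest p53 value lies above the lowest wt value. Rhag, a red cell membrane channel, differed by -0.42 ± 0.26 (-0.17 without wt replicate 3, -0.62 without p53 replicate 2), Alas2, the first enzyme of erythroid haem synthesis, by -0.37 ± 0.19, and Epor, the erythropoietin receptor, by -0.23 ± 0.14, each with overlapping groups. The mean over the list, relative to the wt mean, was -0.04, -0.21 and 0.25 in the wt embryos and -0.22, 0.07 and -0.44 in the p53 embryos. Thus wt replicate 3 is the highest and p53 replicate 3 the lowest, and p53 replicate 2 lies above 2 of the wt embryos.

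All 14 tested genes of visceral endoderm and liver were higher in the p53 mean, by between 0.01 and 0.59 with a median of 0.28, and none passed or had an unadjusted p under 0.05. The mean over the list, relative to wt, was -0.05, 1.01 and -0.15 in the p53 embryos, so that replicate 2 alone was high. Apoa1, the main protein of HDL, stood at 6.29, 6.23 and 6.34 in wt and at 6.08, 8.53 and 6.03 in p53. Ttr, the carrier of thyroid hormone, stood at 9.22, 8.85 and 9.01 in wt and at 9.11, 10.99 and 8.59 in p53. Afp, alpha-fetoprotein, stood at 11.44, 11.23 and 11.28 in wt and at 11.28, 12.60 and 11.08 in p53. In each of these 3 genes the other 2 p53 embryos lie within or below the range of the wt embryos. Without p53 replicate 2 the median of the list was -0.11 and the differences of Apoa1, Ttr and Afp were -0.23, -0.18 and -0.14. The double embryos also differed among themselves, with 8.73, 8.04 and 6.35 for Apoa1.

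**Figure D4:**
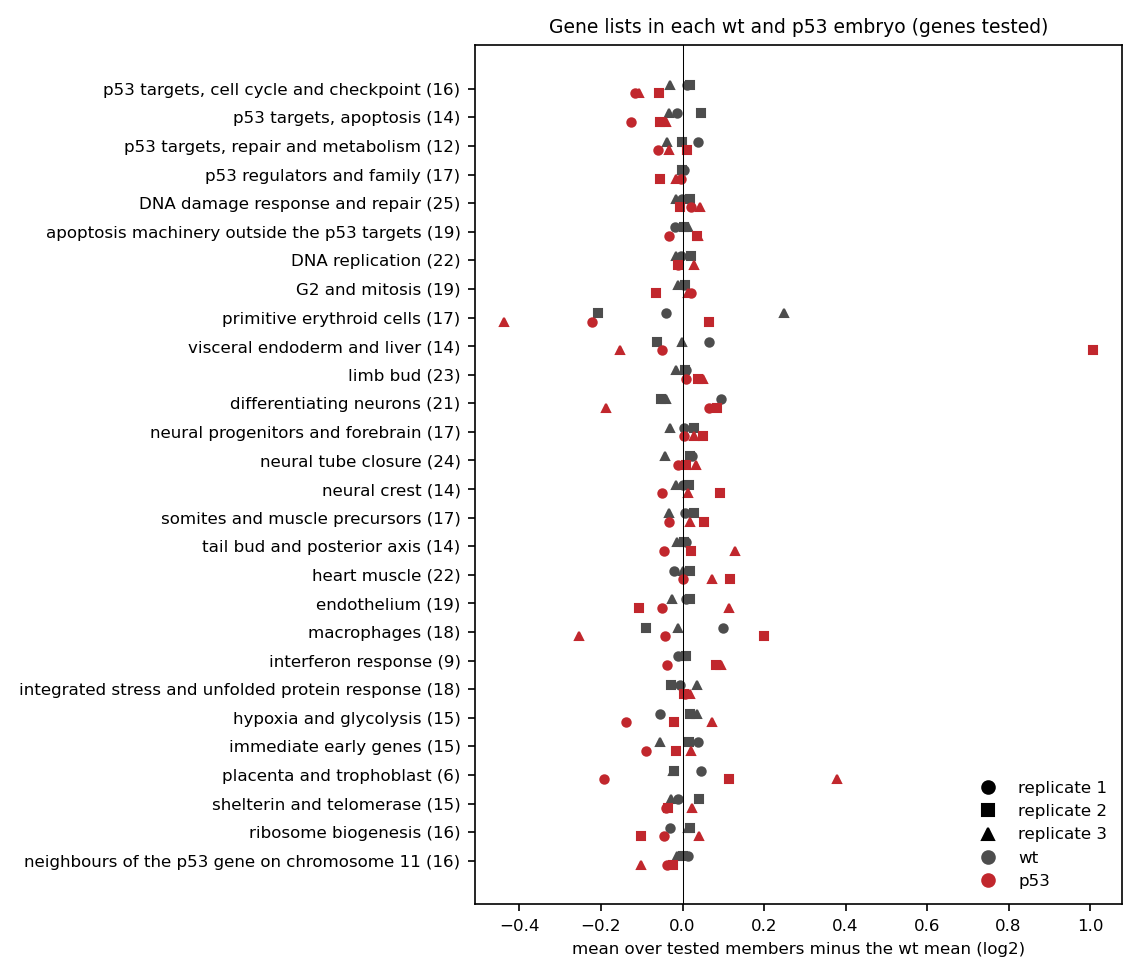
Mean over the tested members of each gene list in each wt (grey) and p53 (red) embryo, relative to the mean of wt (log2, horizontal axis), with the number of genes tested in brackets and replicates as symbols. Most lists lie close to 0 in all 6 embryos; p53 replicate 2 lies at 1.01 for visceral endoderm and liver, and erythroid genes spread from -0.44 to 0.25.

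The lists of embryonic structures showed small differences. In heart muscle 19 of 22 genes were higher, with a median of 0.07 and differences of 0.30 ± 0.20 for Ttn, the sarcomere protein titin, and of 0.19 ± 0.09 for Gata4, a cardiac transcription factor that lies around the array median. The list mean relative to wt was 0.12 and 0.07 in p53 replicates 2 and 3 and close to 0 in replicate 1, as in the wt embryos. In limb bud 15 of 23 were higher with a median of 0.03. Fgf10, the mesenchymal signal for limb outgrowth, stood at 5.95, 5.81 and 6.18 in wt and at 6.33, 6.41 and 6.20 in p53, a difference of 0.34 ± 0.10 (unadjusted p of 0.015) without overlap, and Msx1, a homeobox gene of limb mesenchyme, differed by 0.11 ± 0.05. The acd mean of Fgf10, 6.34, lay near the p53 mean of 6.31.

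Among neural genes, Six3, a homeobox gene of the anterior forebrain, differed by 0.17 ± 0.07 and Fezf2, a forebrain zinc finger factor, by 0.20 ± 0.09, both without overlap. The other probe set of Six3 differed by -0.009. Emx2, of the same list, differed by -0.11 ± 0.06, also without overlap. Their list held 10 higher and 7 lower genes with a median of 0.01. Of 24 genes needed for neural tube closure 15 were higher and 9 lower with a median of 0.03, and 0 had an unadjusted p under 0.05. Cited2, a transcriptional coregulator, differed by 0.12 ± 0.06 and Grhl3, a surface ectoderm factor, by -0.26 ± 0.12, the latter around the array median. Differentiating neurons gave 9 higher and 12 lower, neural crest 9 and 5, somites 10 and 7, and the tail bud 9 and 5.

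Cell proliferation and damage genes lay close to 0. DNA replication genes gave 13 higher and 9 lower (differences of -0.07 to 0.06), and G2 and mitosis genes 8 higher and 11 lower (-0.22 to 0.16). The DNA damage response and repair list gave 15 higher and 10 lower with a median of 0.02, and 0 of these 3 lists' genes had an unadjusted p under 0.05. Apoptosis genes outside the p53 targets gave 11 higher and 8 lower; Birc2, an inhibitor of apoptosis, differed by -0.16 ± 0.07 without overlap. Shelterin and telomerase genes gave 7 higher and 8 lower with a median of -0.01, and Acd, one of them, differed by -0.08 ± 0.07.

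Other cell types and stress programmes followed. Macrophage genes gave 6 higher and 12 lower with a median of -0.04 (-0.15 without p53 replicate 2, 0.05 without p53 replicate 3). Of the 18 tested, 9 lay around or below the array median. Laptm5, a lysosomal protein of leukocytes, differed by -0.28 ± 0.12, and its 4 probe sets ran from -0.28 to -0.0005. Adgre1, of the same list and around the array median, differed by 0.18 ± 0.09. Endothelial genes gave 7 higher and 12 lower, interferon response genes 7 and 2, stress and unfolded protein response genes 11 and 7, ribosome biogenesis genes 5 and 11, and hypoxia and glycolysis genes 4 and 11, each with a median within 0.05 of 0. Of the immediate early genes 7 were higher and 8 lower, and Egr1, a zinc finger factor induced by growth signals and handling, differed by -0.20 ± 0.08 without overlap. Of the 6 placental genes Rhox5, an X-linked homeobox gene, varied most, at 5.63, 7.38 and 6.97 in p53 against 6.28, 6.16 and 6.18 in wt.

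The p53 embryos varied more among themselves than the wt embryos, with a median SD over probe sets of 0.106 against 0.0649. In p53 replicate 2, 117 tested probe sets were more than 1 log2 unit below the mean of the other 5 arrays, where each of the other arrays had 3 to 8. For 114 of them the gene had other probe sets, whose median deviation was -0.06; for 104 of the 114 probe sets it was within 0.5 of 0. Gdi2, a regulator of Rab proteins, was low by -2.35 in one probe set and by -0.06 in the median of its 5 others, and Arf6, a small GTPase, by -2.15 against 0.01 in 3 others. The 3′ minus 5′ difference of the Gapdh control probe sets was 0.20 in this array and 0.05 to 0.12 in the other 5. The part of this in any result was not tested beyond leaving this array out.

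**Figure D5:**
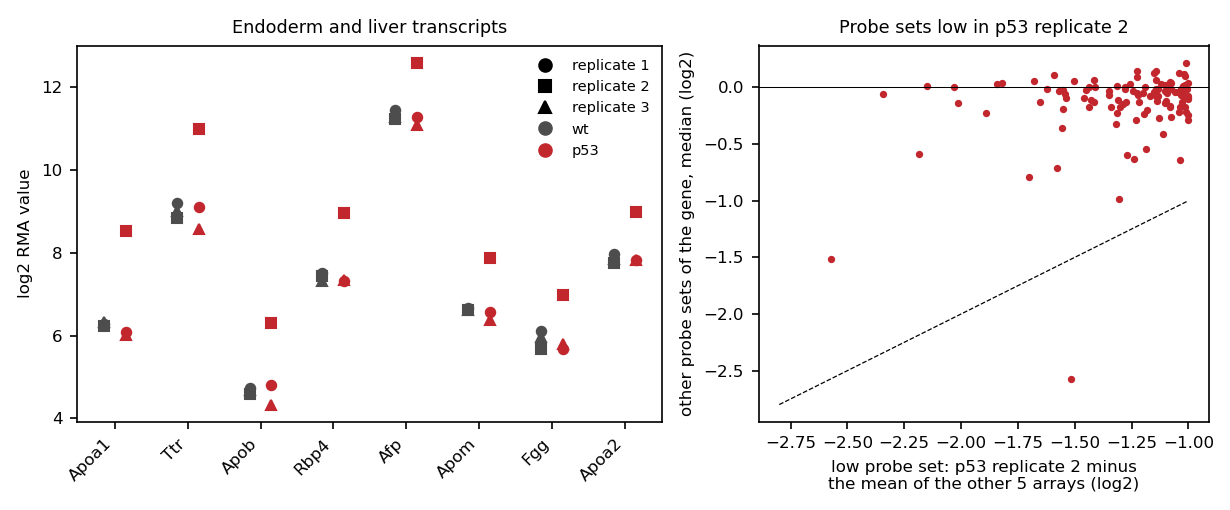
Left, log2 RMA value of 8 endoderm and liver genes in the wt (grey) and p53 (red) embryos, replicates as symbols. Right, probe sets more than 1 log2 unit low in p53 replicate 2 (horizontal axis, deviation from the other 5 arrays) against the median deviation of the other probe sets of the same gene (vertical axis), with a dashed line where both would be equal; 104 of 114 lie within 0.5 of 0 on the vertical axis.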

How the data were processed

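The deposited log2 values were used unchanged: the authors ran justRMA (background correction, quantile normalization, summary per probe set) on the scans and used BRB-ArrayTools 4.4.0 to pick genes, as the design text in GEO says. Quantile normalization hides any change in total RNA. Symbols came from the platform annotation; gene identifiers tied 34741 probe sets to RefSeq (GRCm38.p6, used for names, chromosomes, gene order and promoters; 0 symbols changed). Probe sets with several symbols (932) or none listed (9160) were left out.

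Probe sets were tested when above their array's 40th percentile in 3 or more of the 6 arrays. limma 3.58.1 (R 4.3.3) was fitted to these 6 arrays, with 4 residual degrees of freedom, moderated variances, tests of both directions and p adjusted by Benjamini-Hochberg over 23620 probe sets; double against acd and the interaction used all 12 arrays. The fit was tested on simulated data. A gene stands for its probe set with the highest mean. Named genes are the 8 with the smallest p in each direction, since fewer than 6 passed; the p53 targets; up to 4 with the smallest p of each other list; the 10 with the largest SD in p53; Acd; and sex-linked genes. Members and lists were chosen with earlier results of these data known. Replicate numbers were not used to pair the embryos, and the labels do not say whether they do. Figures and promoter searches used Python 3.11.15. Arrays give no read depth; their number limits the precision.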

Additional observations from a re-analysis of the deposited data

Results flagged for a closer look

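Polh, the translesion polymerase eta and a p53 target, was 0.07 higher in p53 than in wt, and every p53 embryo lay above the wt mean, while every double embryo lay below the acd mean (double minus acd -0.12). The opposite directions drew attention to it. The groups overlap in p53 against wt, its 3 probe sets differed by -0.21 to 0.16, and the difference between the contrasts of Polh had an unadjusted interaction p of 0.11, so the difference did not pass a test.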

How the results depend on the processing

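The number of probe sets that passed was 0 in the 6-array fit and under every alternative run except the omission of single arrays, where it ran from 0 to 7 (4 without wt replicate 1, 7 without wt replicate 3). The number at an unadjusted p under 0.05, 592 as reported, was 190 with all 12 arrays in the fit, 1091 without the filter, 342 with a filter at the 60th percentile, 363 and 246 with 1 probe set per gene (highest mean, largest SD), and 367 to 1483 when single arrays were left out. With the replicate number as a block it was 467 and 0 passed. Deviations of same-numbered embryos from their group means correlated at 0.01, -0.17 and -0.15. Deviations within a group of 3 sum to 0, so these correlations cannot show whether the numbers pair the embryos. With sex as a term, which sets the p53 mean against wt replicate 1 alone, the median of the 42 p53 targets was -0.067, against -0.033. Among the single genes refitted under each alternative, leaving out p53 replicate 2 turned the sign of Apoa1, Ttr, Rbp4, Afp, Apoa2, Apob, Apom, Fgg, Dapk3 and Btg2. Over single omissions these ran from -0.23 to 1.02, -0.18 to 1.02, -0.10 to 0.73, -0.14 to 0.62, -0.034 to 0.55, -0.093 to 0.90, -0.16 to 0.59, -0.18 to 0.47, -0.67 to 0.12 and -0.051 to 0.18, in that order. Bid, near 0, ran from -0.10 to 0.030 and turned in 4 of the 6 omissions. Sex as a term turned Xist (0.41), Eif2s3y (-0.13), Uty (-0.12) and Bid (0.13), and the probe set with the largest SD turned Ddb2 (0.16) and Polh (-0.21). Of 28 list medians 20 changed sign in at least 1 omission. The analysis without chromosome 11 genes, chosen after seeing the data, also passed 0. The 3 embryos a group, and values near background, limit what could be seen.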

Other observations

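Of the probe sets that the annotation does not list with a gene, 2981 were tested in the same fit; 0 passed and 76 had an unadjusted p under 0.05. Dapk3, a death-associated kinase, was among the genes with the largest SD in p53 because replicate 2 stood at 5.70, against 7.05 and 7.27 in the other p53 embryos and 6.82 to 7.20 in wt. Aurka, a mitotic kinase, also stood low in that embryo (9.44, against 9.96 and 10.03), as did Ier2, an immediate early gene (9.77, against 10.45 and 10.44). Dapk3, Aurka and Ier2 have 1 tested probe set each, so no other probe set can be compared. That of Dapk3 is among the 117 probe sets that were low in p53 replicate 2.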
